A study of Mus musculus with 8 samples.

Results

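Messenger RNA of the interleukin-6 (IL-6) family pathway was followed in whole pancreas of 3-week-old mice, through 8 genes: the receptor chains Il6ra, Il6st, Osmr and Lifr, the transcription factor Stat3, its feedback inhibitor Socs3, and the transcription factors Cebpb and Cebpd. Every probe set that the array's annotation assigns to 1 of these symbols was taken, whatever its values, which gave 15 of the 12422 probe sets tested. No probe set assigned to several symbols included any of them. Expression was measured on 8 Affymetrix arrays, 2 per group, in 4 groups. NOD mice are an inbred strain that develops autoimmune diabetes, and NOD.scid is NOD with the scid mutation, which blocks the maturation of T and B lymphocytes. BDC2.5/NOD is NOD carrying a transgenic T cell receptor from a single diabetogenic CD4 T cell clone specific for an islet antigen, and BDC2.5/NOD.scid carries that transgene together with scid. All 4 groups share the NOD background, and no other strain was measured. Per the labels, 2 isolations of RNA, each from 6 animals, were pooled. The sources used here do not say whether a group's 2 arrays hold separate pools, so p-values reflect only how far arrays of a group differ, and that difference may be technical.

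Cytokines of the IL-6 family signal through receptor complexes that share the chain gp130, the product of Il6st, joined by Il6ra for IL-6, by Lifr for leukemia inhibitory factor (LIF) and by Osmr for oncostatin M. Bound receptors activate Janus kinases, which phosphorylate STAT3. Phosphorylated STAT3 enters the nucleus and induces acute-phase genes and its own inhibitor Socs3, while C/EBP beta and C/EBP delta, the products of Cebpb and Cebpd, act at acute-phase promoters beside it. In the exocrine pancreas the pathway is best known from inflammation and injury, where acinar cells produce Reg proteins. The arrays measured mRNA and not phosphorylation.

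Promoter sequence is shown for 4 genes whose transcripts carry the results: Socs3, the single member in whose window the STAT letters were found, Itih4 and Lrg1, acute-phase genes that differed in opposite directions between the transgenic groups, and Reg3b, a Reg gene that was high in both. Each stretch is the 250 bases before the annotated start in RefSeq's GRCm38.p6 mouse assembly, a C57BL/6J sequence from which NOD may differ, and is written 5′ to 3′ along the gene's strand. Capitals mark TTCNNNGAA, the STAT palindrome, in Socs3, Itih4 and Reg3b, and TTNNNGCAA, letters that were searched for C/EBP, in Lrg1. The C/EBP palindrome TTGCGCAA has a shorter spacing, so the letters marked in Lrg1 are not that site.
Socs3, chr11:117969367-117969616, minus strand: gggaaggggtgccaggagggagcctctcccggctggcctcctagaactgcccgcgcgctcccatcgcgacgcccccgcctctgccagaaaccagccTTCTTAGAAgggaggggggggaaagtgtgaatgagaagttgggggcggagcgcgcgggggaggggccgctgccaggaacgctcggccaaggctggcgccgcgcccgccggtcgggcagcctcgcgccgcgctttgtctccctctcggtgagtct
Itih4, chr14:30886226-30886475, plus strand: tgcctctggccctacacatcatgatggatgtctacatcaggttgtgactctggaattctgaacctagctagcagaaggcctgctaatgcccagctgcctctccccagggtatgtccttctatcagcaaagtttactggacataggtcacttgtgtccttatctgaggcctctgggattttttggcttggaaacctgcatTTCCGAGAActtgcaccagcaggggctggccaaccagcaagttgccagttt
Reg3b, chr6:78370635-78370884, plus strand: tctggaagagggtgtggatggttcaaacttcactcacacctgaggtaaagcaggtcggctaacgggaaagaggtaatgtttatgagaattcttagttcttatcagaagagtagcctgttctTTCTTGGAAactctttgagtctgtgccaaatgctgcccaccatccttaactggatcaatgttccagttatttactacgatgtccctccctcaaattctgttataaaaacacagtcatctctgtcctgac
Lrg1, chr17:56121947-56122196, minus strand: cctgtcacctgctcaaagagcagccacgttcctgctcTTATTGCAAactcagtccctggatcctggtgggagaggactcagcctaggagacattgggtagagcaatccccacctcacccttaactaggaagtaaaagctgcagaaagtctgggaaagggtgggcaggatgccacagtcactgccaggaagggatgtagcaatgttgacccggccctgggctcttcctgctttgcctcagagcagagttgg
The marked match begins 154 bases before the start in Socs3, 51 in Itih4, 129 in Reg3b and 213 in Lrg1. Over windows of 300 bases, from 250 before to 50 after the start, the STAT palindrome occurred in 1 of 8 windows of the 7 member genes with an entry, and in 8.30% of all 32851 promoter windows. The letters searched for C/EBP, TTGCNNNAA or TTNNNGCAA so that both strands are read, occurred in 0 of the 8 and in 9.56% of all windows. The shorter spacing of the C/EBP palindrome was not searched, so these are not counts of C/EBP sites. Among acute-phase genes 6 of 32 windows held the STAT palindrome and 10 of 32 the letters of longer spacing. In the Reg family it was 2 of 7 for each, and Reg3a and Reg3g, which rose with the transgene as Reg3b did, held no match to either. A match is a description of letters and not of binding.

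The deposited values were read as log2, with array medians from 4.24 to 4.3, and 11 of the 15 probe sets had a mean above the median of all probe sets (4.27). The values carry no detection calls, so where background lies was not measured. Acinar markers averaged 11.5 to 11.8 on every array, so the defining transcripts of exocrine pancreas were high in all groups. Replicate 1 of NOD, replicate 1 of NOD.scid and replicate 2 of BDC2.5/NOD.scid read 9.26 to 9.55 on the middle beta-actin control and the other 5 arrays 6.95 to 7.74, and the calls that this split moves are given with the members.

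With the transgene in NOD.scid mice, 7 of the 15 probe sets rose, from 5 genes (Lifr, Cebpb, Socs3, Cebpd and Stat3), and none fell, where 2.37% of all probe sets were higher and 4.03% lower. With the transgene in NOD mice only the 2 Stat3 probe sets rose and none fell, where 3.91% of all were higher and 4.06% lower. Without the transgene, 3 probe sets, all of Lifr, were lower in NOD.scid than in NOD and none higher, where 1.61% of all were lower and 0.741% higher. Among transgenic mice, 4 probe sets of Lifr, Cebpb and Cebpd were higher in BDC2.5/NOD.scid than in BDC2.5/NOD and none lower, where 2.99% of all were higher and 5.35% lower. The interaction, which is the effect of the transgene in NOD.scid minus its effect in NOD, was above 0 for 5 probe sets of the same 3 genes and below 0 for none, where 2.22% of all were above and 2.5% below. The comparisons share arrays: the transgene in NOD.scid and scid without the transgene both use NOD.scid, and the interaction uses all 8. The members were chosen with earlier results of these data known, so their shares are not those of a blind choice. Of the 7 that rose in NOD.scid, 3 were Lifr probe sets, and 2 of those come from 1 sequence record. The median log2 difference of the 15 was 0.46 with the transgene in NOD.scid, where that of all probe sets was -0.0045, and 0.12 with the transgene in NOD, where that of all was 0.03.
Without the 3 arrays of high actin control, 3 groups keep 1 array each, each assumed to vary like BDC2.5/NOD. In that fit more probe sets passed in every comparison, over all probe sets as among the members. A member that passes there is therefore not set apart from the rest. In the fits named next, which leave out 1 array, calls over all probe sets fell as the member counts did. Without either BDC2.5/NOD array the count with the transgene in NOD was 1. Among transgenic mice it was also 1 without either BDC2.5/NOD array, and 2 without either BDC2.5/NOD.scid array. For the interaction it was 2 without BDC2.5/NOD replicate 1, and 3 without BDC2.5/NOD replicate 2 or NOD replicate 1.

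**Figure D1:**
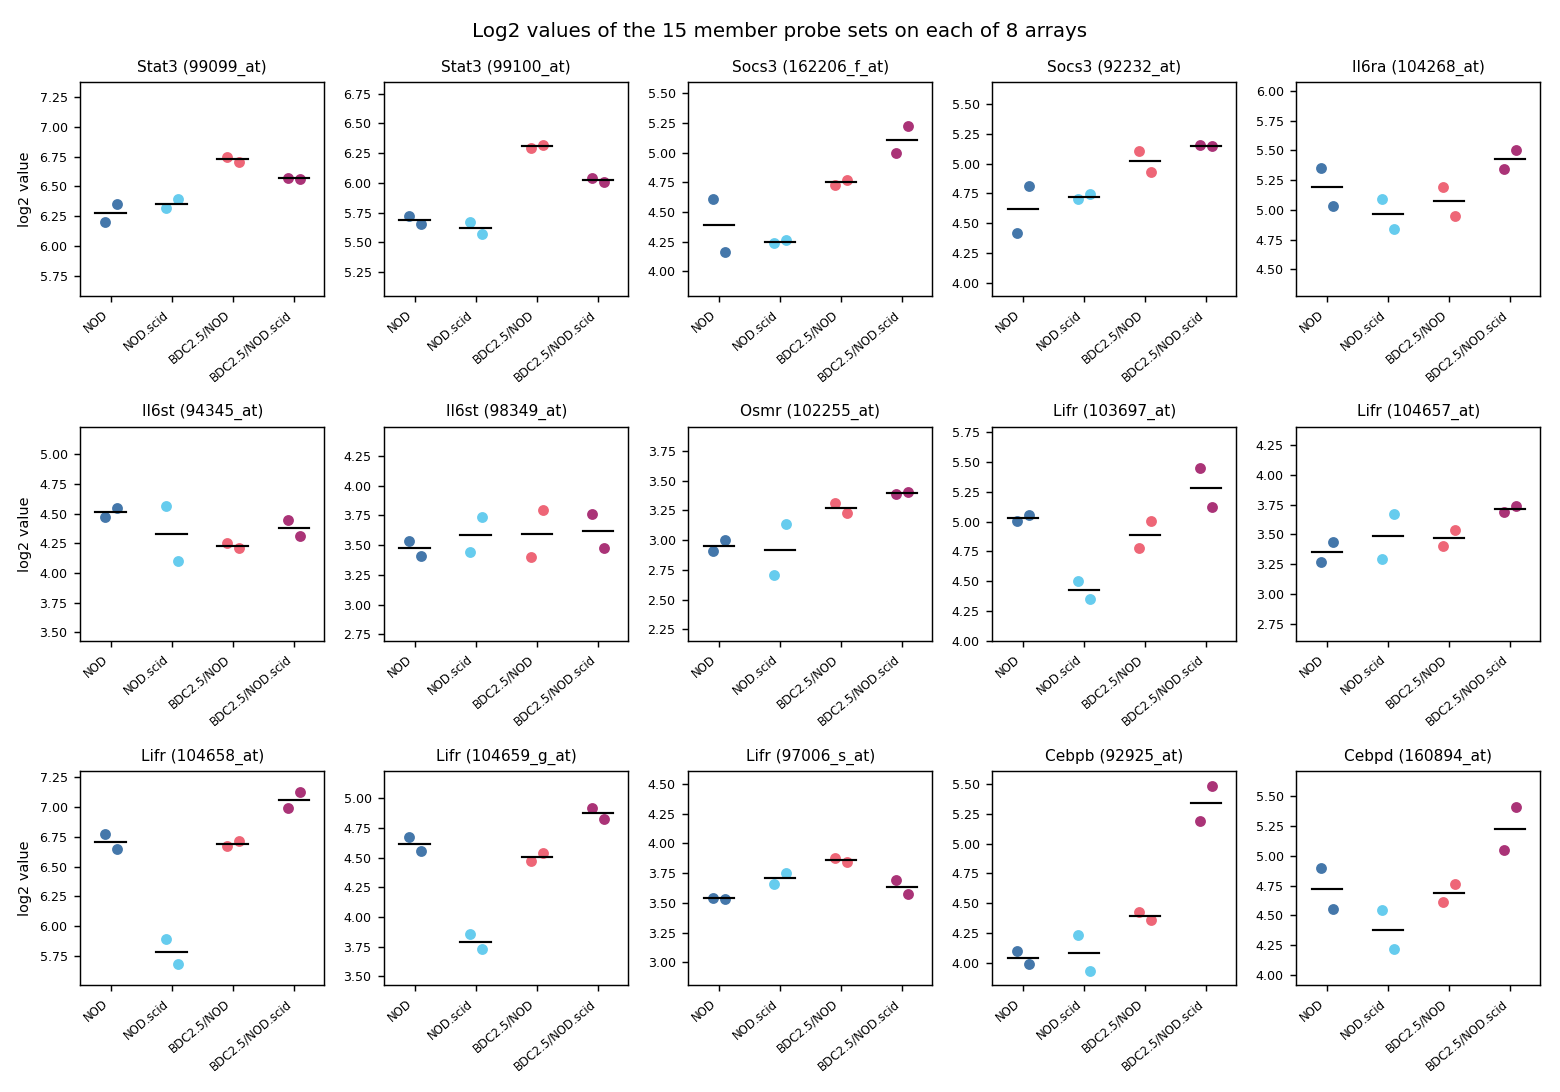
Log2 values (vertical axis) of the 15 probe sets on each of the 8 arrays, by group (horizontal axis), with a bar at the mean of each pair. Stat3 is highest in BDC2.5/NOD, Cebpb and Cebpd in BDC2.5/NOD.scid, and 3 probe sets of Lifr are lowest in NOD.scid.

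Lifr, the receptor chain that pairs with gp130 for LIF, stood out by its low level in NOD.scid. Probe set 104658_at read 6.78 and 6.65 for NOD, 5.89 and 5.68 for NOD.scid, 6.67 and 6.71 for BDC2.5/NOD, and 6.99 and 7.12 for BDC2.5/NOD.scid. Both NOD.scid arrays lay below every other array, both BDC2.5/NOD.scid arrays lay above, and the ranges of NOD and BDC2.5/NOD overlapped. In NOD.scid the log2 value was lower than in NOD by 0.93 (SE 0.101, 1.90-fold, limma with Benjamini-Hochberg adjusted p = 0.000297). With the transgene in NOD.scid it rose by 1.27 (SE 0.101, 2.42-fold, limma adjusted p = 5.19e-06). With the transgene in NOD the difference was -0.02, with a 95% confidence interval from -0.24 to 0.20 (limma adjusted p = 0.947). The interaction was 1.29 (SE 0.142, limma adjusted p = 0.000207). In the transgenic groups the level was 0.36 higher with scid (SE 0.101, limma adjusted p = 0.0442), so the scid comparison was negative without the transgene and positive with it.

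Probe set 104659_g_at, which is taken from the same sequence record and is not independent of the last, read 4.67 and 4.55 for NOD, 3.85 and 3.73 for NOD.scid, 4.47 and 4.54 for BDC2.5/NOD, and 4.92 and 4.82 for BDC2.5/NOD.scid. The order of the groups was the same, with a rise of 1.08 with the transgene in NOD.scid (limma adjusted p = 2.56e-05) and an interaction of 1.19 (limma adjusted p = 0.000396). Another probe set, 103697_at, read 5.01 and 5.06 for NOD, 4.50 and 4.35 for NOD.scid, 4.77 and 5.01 for BDC2.5/NOD, and 5.45 and 5.12 for BDC2.5/NOD.scid. There too NOD.scid lay below every other array and BDC2.5/NOD.scid above, with a rise of 0.86 (SE 0.126, limma adjusted p = 0.00118) with the transgene in NOD.scid and an interaction of 1.0 (limma adjusted p = 0.00738). The remaining Lifr probe sets were dim and passed in no comparison: 104657_at read 3.27 to 3.74 and 97006_s_at 3.53 to 3.88 over the 8 arrays. At 97006_s_at the difference with the transgene was -0.07 in NOD.scid and 0.33 in NOD (limma adjusted p = 0.795 and 0.0639), an order that the brighter probe sets did not show. The latter passed without the 3 arrays of high actin control (limma adjusted p = 0.0403), with array weights (0.0325) and in a fit of those 4 arrays alone (0.0492), in a range from 0.0325 to 0.304.

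Some of the Lifr calls depend on single arrays or on how the fit was set. Among transgenic mice, the call at 104658_at was lost without NOD replicate 1 (limma adjusted p = 0.0535) or NOD replicate 2 (0.0536), without BDC2.5/NOD replicate 1 (0.257) or 2 (0.205), and without BDC2.5/NOD.scid replicate 1 (0.0604) or 2 (0.223), where its limma adjusted p over all alternatives ran from 0.0163 to 0.257. At 104659_g_at the same call held under 13 of the 20. It was lost with the title number as a term (limma adjusted p = 0.0603), at a threshold of 0.01 and with that pair as 1 sample. Leaving out BDC2.5/NOD replicate 1 or 2 lost it, at 0.34 and 0.40. So did leaving out BDC2.5/NOD.scid replicate 1 or 2, at 0.32 and 0.41. At 103697_at the difference of -0.61 between NOD.scid and NOD passed in the main fit (limma adjusted p = 0.0258). This call was lost with the title number as a term (limma adjusted p = 0.0534) and at a threshold of 0.01. Leaving out NOD replicate 1 or 2 or NOD.scid replicate 2 lost it too, at -0.63, -0.58 and -0.53. The call of the interaction at 103697_at was lost without BDC2.5/NOD replicate 1, at 0.88. Within arrays of high actin control the rise at 104658_at with the transgene in NOD.scid was 1.24, and within arrays of low actin control it was 1.31. The lower level in NOD.scid was -0.89 and -0.97 in the same order. At 103697_at the difference of 0.39 among transgenic mice (limma adjusted p = 0.0831) passed with the actin term (0.0335), without the 3 arrays of high actin control (1.71e-05) and without BDC2.5/NOD.scid replicate 2 (0.0381), in a range from 1.71e-05 to 0.479.

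Il6ra, Osmr and Il6st passed in no comparison when all arrays were fitted as deposited. Il6ra, the chain that binds IL-6, read 5.35 and 5.04 for NOD, 5.09 and 4.84 for NOD.scid, 5.19 and 4.95 for BDC2.5/NOD, and 5.35 and 5.50 for BDC2.5/NOD.scid. The BDC2.5/NOD.scid arrays lay above those of NOD.scid and BDC2.5/NOD, and the other 3 groups overlapped each other. The difference with the transgene in NOD.scid was 0.46, with a 95% confidence interval from 0.17 to 0.75 (limma adjusted p = 0.0684). It passed with the actin control as a term (limma adjusted p = 0.00547) and without the 3 arrays of high actin control (0.00160), and over all alternatives the adjusted p ran from 0.00160 to 0.320. The interaction, 0.58 (limma adjusted p = 0.119), also passed without those 3 arrays, at 0.47 (0.0436, in a range from 0.0436 to 0.410). Osmr, the chain that joins gp130 for oncostatin M, was dim, at 2.90 and 3.00 for NOD, 2.70 and 3.14 for NOD.scid, 3.31 and 3.23 for BDC2.5/NOD, and 3.39 and 3.40 for BDC2.5/NOD.scid. All 4 transgenic arrays lay above all 4 others. The difference was 0.47 in NOD.scid, with an interval from 0.19 to 0.75 (limma adjusted p = 0.05003, just above the threshold), and 0.31 in NOD, with an interval from 0.03 to 0.60 (limma adjusted p = 0.163). The former passed under 5 alternatives: quantile normalization (limma adjusted p = 0.0432), centred medians (0.0429), a robust prior (0.0418), the actin term (0.0103) and, at 0.69, without NOD.scid replicate 2 (0.00461), in a range from 0.00461 to 0.289.

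Il6st, which encodes the shared chain gp130, read 4.47 and 4.55 for NOD, 4.56 and 4.10 for NOD.scid, 4.25 and 4.21 for BDC2.5/NOD, and 4.44 and 4.31 for BDC2.5/NOD.scid at probe set 94345_at. The NOD.scid pair was the most spread and enclosed the values of every other group. The difference with the transgene was 0.05 in NOD.scid, with an interval from -0.25 to 0.34, and -0.28 in NOD, with an interval from -0.57 to 0.01 (limma adjusted p = 0.915 and 0.238). The difference in NOD.scid turned sign with the actin split, at -0.25 within arrays of high and 0.35 within arrays of low actin control. Without the 3 arrays of high actin control Il6st 94345_at passed in 3 comparisons: -0.32 with the transgene in NOD (limma adjusted p = 0.0445, in a range from 0.0445 to 0.556), -0.45 in NOD.scid against NOD (0.0137, in a range from 0.0137 to 0.952) and an interaction of 0.66 (0.00386, in a range from 0.00386 to 0.854). At the dim 98349_at all 8 values lay between 3.40 and 3.79 and no interval excluded 0. Of the 11 other receptor chains measured, such as those of related cytokines, 0 passed limma's adjusted threshold in any of the 5 comparisons, and at most 3 in a comparison had an unadjusted p under 0.05.

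The ligands gave no call either. Of 10 IL-6 family ligands listed, 4 had a probe set of their own (Il6, Il11, Ctf1 and Ebi3), and 0 passed limma's adjusted threshold in the 5 comparisons, with 1 of them under an unadjusted p of 0.05, in 1 comparison. Il6 read 2.24 to 2.54 over the 8 arrays, with a difference of 0.08 in NOD.scid and 0.01 in NOD with the transgene (SE 0.114, limma adjusted p = 0.799 and 0.976). Il11 read 3.5 to 4.05. At such levels a difference may go unseen, and Lif and Osm, the ligands of Lifr and Osmr, were not analysed here.

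**Figure D2:**
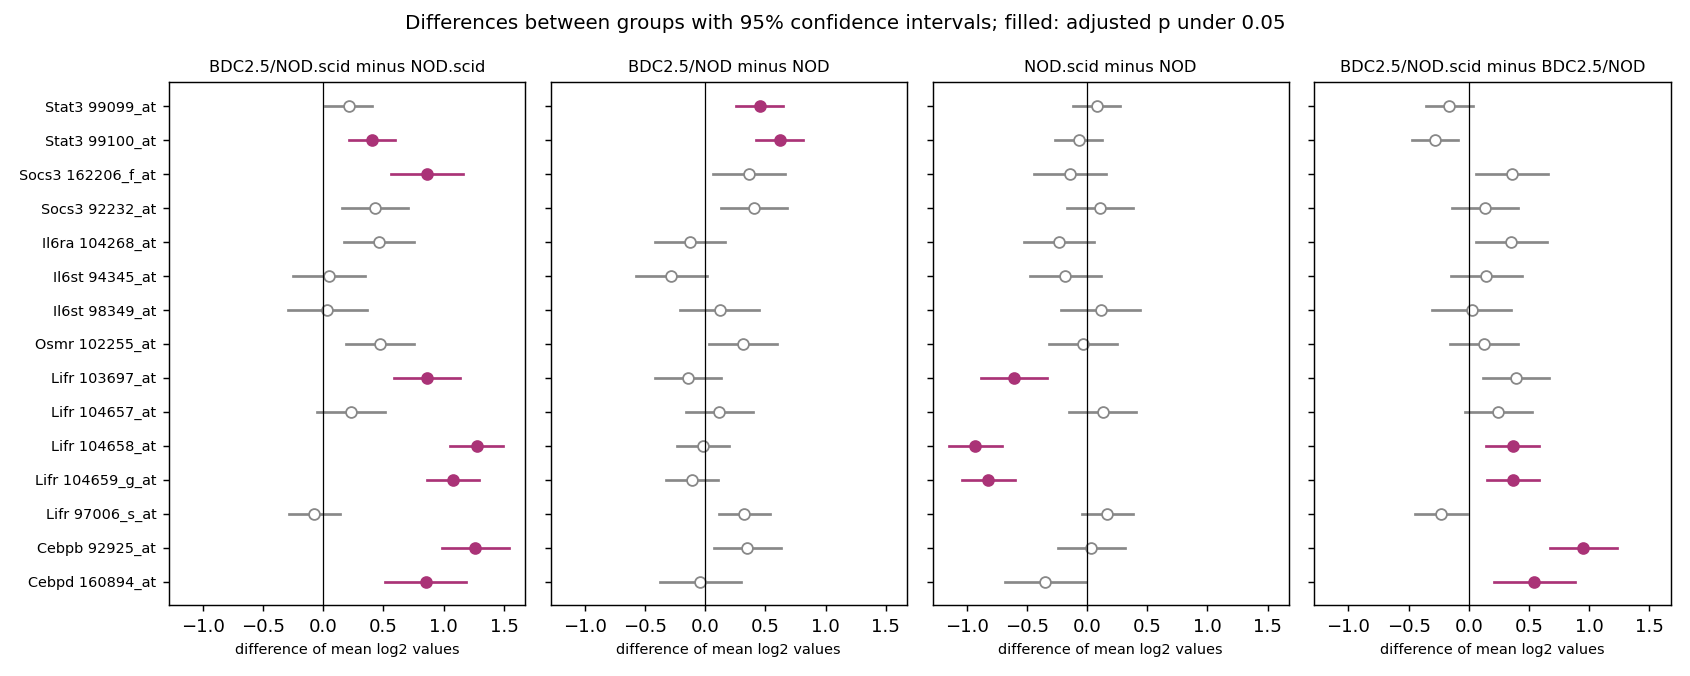
Differences of mean log2 values (horizontal axis) for the 15 probe sets in the 4 pairwise comparisons, with 95% confidence intervals; filled points passed an adjusted p of 0.05. Most points lie above 0 in the panel for BDC2.5/NOD.scid minus NOD.scid, and Stat3 alone is filled in the panel for BDC2.5/NOD minus NOD.

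Stat3, the transcription factor that receives the signal, was raised by the transgene in NOD mice. Probe set 99100_at read 5.72 and 5.65 for NOD, 5.67 and 5.57 for NOD.scid, 6.29 and 6.32 for BDC2.5/NOD, and 6.04 and 6.01 for BDC2.5/NOD.scid. The transgenic arrays lay above the others, BDC2.5/NOD above BDC2.5/NOD.scid, and NOD and NOD.scid overlapped. The rise was 0.62 in NOD (SE 0.0888, 1.54-fold, limma adjusted p = 0.00119) and 0.41 in NOD.scid (SE 0.0888, limma adjusted p = 0.0154). Probe set 99099_at read 6.20 and 6.35 for NOD, 6.32 and 6.39 for NOD.scid, 6.75 and 6.71 for BDC2.5/NOD, and 6.57 and 6.56 for BDC2.5/NOD.scid. Again the transgenic arrays were the higher and BDC2.5/NOD the highest. There the rise in NOD was 0.45 (SE 0.0897, limma adjusted p = 0.00849), and the difference in NOD.scid was 0.21, with an interval from 0.02 to 0.41 (limma adjusted p = 0.238). The interaction was -0.21 at 99100_at, with an interval from -0.49 to 0.06, and -0.24 at 99099_at, with an interval from -0.52 to 0.03 (limma adjusted p = 0.443 and 0.374), so the effects in NOD and NOD.scid were not shown to differ. Nor did the transgenic groups differ past the threshold, at -0.28 with scid at 99100_at, with an interval from -0.48 to -0.09, and -0.16 at 99099_at (limma adjusted p = 0.0770 and 0.349). The former passed with the actin term, at -0.30 (limma adjusted p = 0.0389), and with dim probe sets left out, at -0.28 (0.0476), in a range from 0.0389 to 0.351.

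The rise of Stat3 99100_at in NOD passed under all 20 alternatives, while the other 2 calls did not. In NOD.scid the call at 99100_at was lost without NOD.scid replicate 2 (limma adjusted p = 0.0898), without BDC2.5/NOD.scid replicate 1 (0.0693) or 2 (0.0613), and in a fit of those 4 arrays alone (0.0775), in a range from 0.00110 to 0.0898. In NOD the call at 99099_at was lost without NOD replicate 1 (limma adjusted p = 0.0890), without BDC2.5/NOD replicate 1 (0.108) or 2 (0.0716), and with that pair counted as 1 sample (0.0984), in a range from 0.00104 to 0.108.

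Of the 10 kinases and other STATs measured, Jak3 alone passed in any comparison. Jak3, the Janus kinase of the common gamma chain receptors, read 5.90 and 6.01 for NOD, 6.12 and 6.20 for NOD.scid, 6.82 and 6.76 for BDC2.5/NOD, and 6.21 and 6.22 for BDC2.5/NOD.scid. The BDC2.5/NOD arrays stood above the other 6. The rise was 0.83 with the transgene in NOD (SE 0.0887, limma adjusted p = 0.000139), and the interaction was -0.78 (limma adjusted p = 0.00373). Of all probe sets, 3.91% were higher with the transgene in NOD and 2.5% were below 0 for the interaction. Jak1 and Jak2, kinases that bind gp130, did not pass, with differences of 0.20 and 0.10 with the transgene in NOD.scid (limma adjusted p = 0.314 and 0.771).

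Socs3, which binds gp130 and its kinases and shuts the signal off, rose with the transgene in NOD.scid at 1 of its 2 probe sets. Probe set 162206_f_at, whose suffix marks probes that may also match related transcripts, read 4.61 and 4.16 for NOD, 4.24 and 4.26 for NOD.scid, 4.73 and 4.77 for BDC2.5/NOD, and 5.0 and 5.22 for BDC2.5/NOD.scid. Every transgenic array lay above every other, and the NOD pair was widely spread. The rise was 0.86 in NOD.scid (SE 0.137, 1.81-fold, limma adjusted p = 0.00203) and the difference in NOD was 0.36, with an interval from 0.06 to 0.66 (limma adjusted p = 0.132). Within arrays of high and low actin control the rise in NOD.scid was 0.98 and 0.73. In NOD the difference was 0.59 and passed without NOD replicate 1 (limma adjusted p = 0.0312), and it passed as well with the actin term (0.0148) and without the 3 arrays of high actin control (9.79e-06), which include that array, in a range from 9.79e-06 to 0.610.

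At probe set 92232_at, Socs3 read 4.42 and 4.82 for NOD, 4.70 and 4.74 for NOD.scid, 5.11 and 4.93 for BDC2.5/NOD, and 5.15 and 5.15 for BDC2.5/NOD.scid. The transgenic arrays were again the higher 4. The difference was 0.43 in NOD.scid, with an interval from 0.15 to 0.70, and 0.40 in NOD, with an interval from 0.13 to 0.68 (limma adjusted p = 0.0730 and 0.0728). The latter passed without NOD replicate 2, at 0.60 (limma adjusted p = 0.0168), and with array weights (0.0379), in a range from 0.0168 to 0.454. The former passed without NOD replicate 1 or 2 (limma adjusted p = 0.0271 and 0.0275), with the actin term (0.0175) and without the 3 arrays of high actin control (0.0177), in a range from 0.0175 to 0.222. The interaction was 0.50 at 162206_f_at and 0.02 at 92232_at, and passed at neither (limma adjusted p = 0.207 and 0.972). Without NOD replicate 2 it passed at 162206_f_at, at 0.72 (limma adjusted p = 0.0418, in a range from 0.0418 to 0.693).

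Of 16 other inhibitors and adaptors measured, 1 was lower and none higher with the transgene in NOD.scid, where 4.03% of all probe sets were lower. With the transgene in NOD 1 was lower and none higher, where 4.06% of all were lower. The former was Ndufa13, a respiratory chain subunit that also binds STAT3, which fell by 0.59 (SE 0.128, limma adjusted p = 0.0154). The latter was Gab1, an adaptor that couples gp130 to kinase cascades, at 5.28 and 5.07 for NOD, 5.03 and 4.96 for NOD.scid, 4.67 and 4.76 for BDC2.5/NOD, and 5.17 and 5.16 for BDC2.5/NOD.scid. It fell by 0.46 in NOD (limma adjusted p = 0.0158), and its interaction was 0.63 (limma adjusted p = 0.0263). Its second, dimmer probe set passed in no comparison. Socs1, the related inhibitor best known from interferon signalling, differed by -0.17 in NOD.scid and 0.28 in NOD and did not pass (limma adjusted p = 0.558 and 0.203).

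Cebpb, the C/EBP factor first described as nuclear factor for IL-6, was highest in BDC2.5/NOD.scid. It read 4.10 and 3.99 for NOD, 4.23 and 3.93 for NOD.scid, 4.43 and 4.36 for BDC2.5/NOD, and 5.2 and 5.49 for BDC2.5/NOD.scid. The BDC2.5/NOD.scid arrays stood apart, BDC2.5/NOD lay above both groups without the transgene, and those overlapped. The rise was 1.26 in NOD.scid (SE 0.128, 2.40-fold, limma adjusted p = 5.47e-05), and within arrays of high and low actin control it was 1.26 and 1.27. In NOD the difference was 0.35, with an interval from 0.07 to 0.63 (limma adjusted p = 0.117). It passed in a fit of those 4 arrays alone (limma adjusted p = 0.0424), with the actin term (0.00691) and without the 3 arrays of high actin control (0.00548), in a range from 0.00548 to 0.425. Among transgenic mice Cebpb was 0.95 higher with scid (SE 0.128, limma adjusted p = 0.000590). The interaction was 0.91 (SE 0.181, limma adjusted p = 0.0128). It was lost at a threshold of 0.01 and with the BDC2.5/NOD pair counted as 1 sample. Leaving out NOD replicate 1 or BDC2.5/NOD replicate 1 or 2 lost it too, at 0.86, 0.95 and 0.88.

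Cebpd, which is induced early in acute-phase responses, read 4.90 and 4.55 for NOD, 4.54 and 4.21 for NOD.scid, 4.61 and 4.76 for BDC2.5/NOD, and 5.05 and 5.41 for BDC2.5/NOD.scid. The BDC2.5/NOD.scid arrays were above the other 6, the NOD.scid arrays were the lowest, and NOD and BDC2.5/NOD overlapped. The rise was 0.85 with the transgene in NOD.scid (SE 0.154, 1.80-fold, limma adjusted p = 0.00481). Leaving out BDC2.5/NOD.scid replicate 2 lost the call, at 0.67 (limma adjusted p = 0.0618, in a range from 3.15e-08 to 0.0618). In NOD the difference was -0.04, with an interval from -0.37 to 0.30 (limma adjusted p = 0.916). Without the transgene the difference of -0.35 between NOD.scid and NOD (limma adjusted p = 0.330) passed with the actin term (0.0395, in a range from 0.0395 to 0.830). The level was 0.54 higher with scid among transgenic mice (limma adjusted p = 0.0491), a call that held under 11 of the 20 alternatives. It was lost with quantile normalization (limma adjusted p = 0.0528), centred medians (0.0544), no variance trend (0.0510) and the title number as a term (0.0797). It was also lost at a threshold of 0.01 and with the BDC2.5/NOD pair counted as 1 sample. Leaving out BDC2.5/NOD replicate 1 or 2 or BDC2.5/NOD.scid replicate 2 lost it too, at 0.47, 0.62 and 0.36. The interaction of 0.89 (SE 0.218, limma adjusted p = 0.0374) was lost without any of 5 arrays, namely NOD replicate 1 (0.139), NOD.scid replicate 2 (0.119), BDC2.5/NOD replicate 1 (0.188) or 2 (0.107), and BDC2.5/NOD.scid replicate 2 (0.124), in a range from 0.00123 to 0.188.

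Of all probe sets, 2.37% were higher and 4.03% lower with the transgene in NOD.scid, and 3.91% and 4.06% in NOD. Of 9 other C/EBP family members and partners measured, 2 rose with the transgene in NOD.scid and 2 with the transgene in NOD, and none fell in either. In NOD.scid these were Nfkbiz, a nuclear cofactor of inflammatory genes, by 0.94 (SE 0.134, limma adjusted p = 0.000999), and Nfil3, a bZIP repressor, by 0.42 (limma adjusted p = 0.0277). A dimmer probe set of Nfil3 rose on either background, by 0.71 in NOD.scid and 0.65 in NOD (limma adjusted p = 0.00139 and 0.00265). The second probe set of Nfkbiz passed in no comparison. In NOD the 2 genes counted were Dbp and Atf4, a stress-response factor that pairs with C/EBP proteins, which rose by 0.44 (SE 0.0837, limma adjusted p = 0.00618). Atf4 was highest in BDC2.5/NOD, at 8.98 and 8.97, with 8.18 to 8.59 on the other 6 arrays, and its interaction was -0.52 (limma adjusted p = 0.0268).

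Of 30 genes listed as STAT3 targets and measured, 3 rose and 1 fell with the transgene in NOD.scid, and 4 rose and 1 fell with the transgene in NOD. The median difference was 0.17 in NOD.scid and 0.15 in NOD, where that of all probe sets was -0.0045 and 0.03. The shares of all probe sets higher and lower were 2.37% and 4.03% in NOD.scid, and 3.91% and 4.06% in NOD. Gadd45g, a stress-induced growth regulator, rose in both, by 0.92 in NOD.scid (SE 0.132, limma adjusted p = 0.00103) and by 0.53 in NOD (limma adjusted p = 0.0282). Zfp36, which destabilises cytokine mRNA, and the kinase gene Pim1 rose in NOD.scid, by 0.84 and 0.36 (limma adjusted p = 0.000144 and 0.0267), and Birc5, a gene of dividing cells, fell. A second, dimmer probe set of Pim1 passed in no comparison. In NOD the risers were Gadd45g, Bcl3, Junb and Muc1, and Myc fell. Zfp36 read 5.64 to 5.89 without the transgene, 6.12 and 6.07 in BDC2.5/NOD, and 6.55 and 6.60 in BDC2.5/NOD.scid, with BDC2.5/NOD.scid the highest and BDC2.5/NOD next, as for Cebpb. Muc1, an epithelial mucin, was highest in BDC2.5/NOD, at 9.03 and 9.13. Stat3 was highest there too, though its transgenic groups did not differ past the threshold.

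The acute-phase genes, which IL-6, STAT3 and C/EBP factors induce in liver, did not share a single pattern. Of 30 measured, 9 rose and none fell with the transgene in NOD.scid (Lrg1, Saa3, Hp, Serpina3n, Itih4, Cp, F2, Mt1 and Mt2), and 4 rose (Lrg1, Itih3, Itih4 and F2) and 2 fell (Mt1 and Mt2) in NOD. Lrg1, a secreted glycoprotein of the acute phase, read 4.11 to 4.35 without the transgene, 5.07 and 5.16 in BDC2.5/NOD, and 7.84 and 7.87 in BDC2.5/NOD.scid. Saa3, a serum amyloid made outside the liver, read 6.39 and 6.19 in BDC2.5/NOD.scid, against 3.54 to 3.84 elsewhere. Both were highest where Cebpb and Cebpd were. Itih4, an inhibitor heavy chain, read 4.74 and 4.77 for NOD, 5.33 and 5.14 for NOD.scid, 7.87 and 7.77 for BDC2.5/NOD, and 6.63 and 6.48 for BDC2.5/NOD.scid. It was highest in BDC2.5/NOD, as Stat3 was. In Stat3 itself the transgenic groups did not differ past the threshold, and a link between Stat3 and Itih4 was not tested. The interaction was 2.71 for Lrg1 (SE 0.144, limma adjusted p = 3.98e-07), 2.68 for Saa3 (SE 0.163, limma adjusted p = 1.10e-06) and -1.74 for Itih4 (SE 0.140, limma adjusted p = 1.48e-05).

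With the transgene, 2.37% of all probe sets were higher in NOD.scid and 3.91% in NOD. Of 5 Reg genes measured, 4 rose with the transgene on either background (Reg2, Reg3a, Reg3b and Reg3g). Dimmer probe sets of Reg3a, Reg3b and Reg3g did so too. A dimmer probe set of Reg2 rose in NOD, by 0.75 (limma adjusted p = 0.00233), and did not pass in NOD.scid, at 0.14 (0.661). Reg3b read 7.79 and 7.87 for NOD, 9.09 and 9.09 for NOD.scid, 12.9 and 12.9 for BDC2.5/NOD, and 12.9 and 12.9 for BDC2.5/NOD.scid. Its transgenic groups differed by -0.04 (limma adjusted p = 0.812). The level without the transgene was 1.26 higher in NOD.scid than in NOD (SE 0.0749, limma adjusted p = 1.25e-06), the group in which Lifr was lowest.

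**Figure D3:**
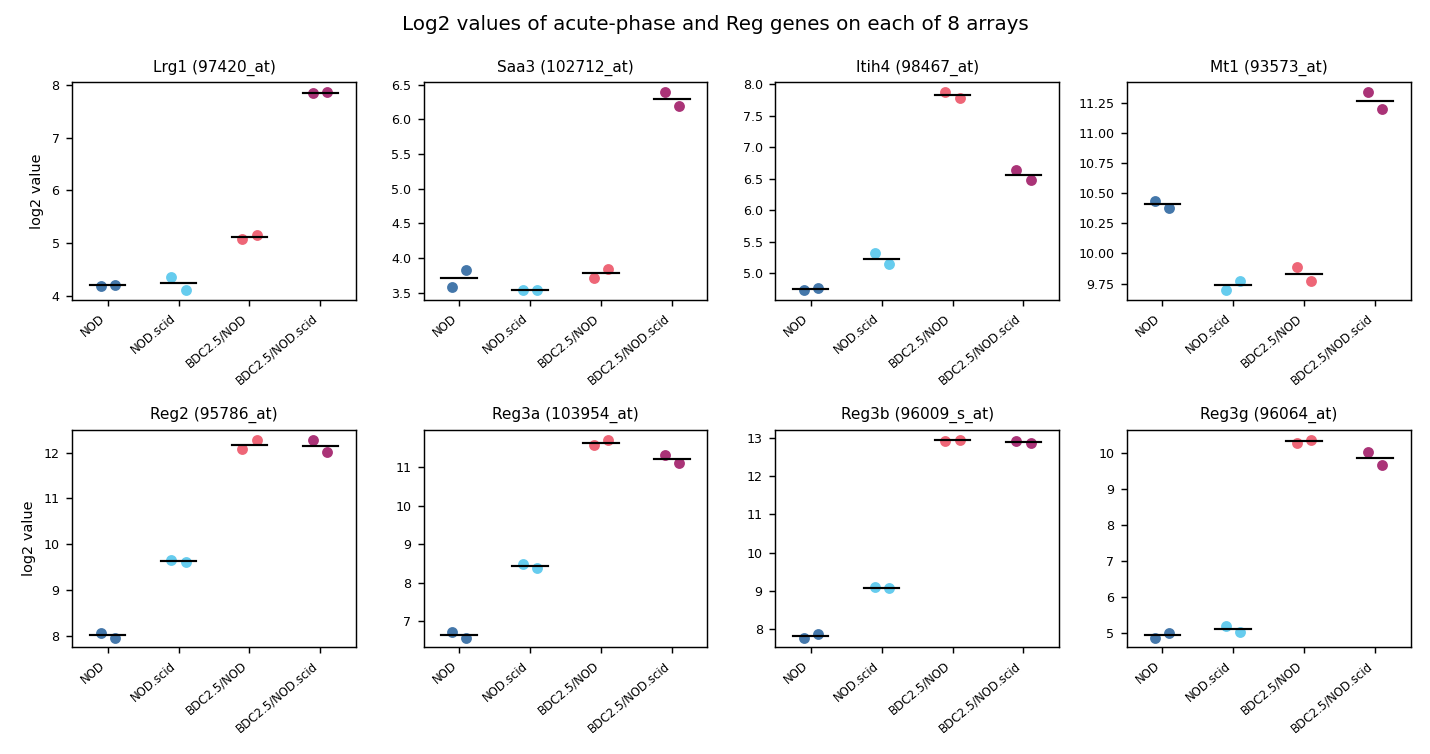
Log2 values (vertical axis) of 4 acute-phase and 4 Reg genes on each of the 8 arrays, by group (horizontal axis), with a bar at the mean of each pair. Lrg1 and Saa3 are highest in BDC2.5/NOD.scid, Itih4 is highest in BDC2.5/NOD, and the Reg genes are high in both transgenic groups.

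By Pearson correlation over the 8 arrays, which fall into 4 groups, the genes most like Stat3 (99099_at) were Ttc39b, Itih4 and Serpina10, at r from 0.967 to 0.976. Those most like Cebpb were AW112010, Lrg1 and Iigp1, at 0.982 to 0.991, and those most like Cebpd were Cd74, Cp and Pex13, at 0.903 to 0.934. Lifr (104658_at) was matched by Wdr92, Klk1b22 and Sesn1, at 0.920 to 0.981. Among the members themselves, r between Stat3 and Cebpb was 0.47 and between Stat3 and Cebpd 0.22. These are descriptions over arrays that share their groups, and r was given no test.

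In RNA of a whole organ, more cells of a type and more RNA per cell cannot be told apart. Macrophage markers averaged 5.57 and 5.72 in BDC2.5/NOD.scid, against 4.75 to 4.97 in the other groups, and 7 of 14, among them Cd68 and Lyz2, rose with the transgene in NOD.scid and 0 in NOD by limma (1 there with an unadjusted p under 0.05). That group is also where Cebpb, Cebpd, Socs3 162206_f_at and Lifr were highest, and the part of macrophages in those values was not tested. A second, dimmer probe set of Lyz2 passed in no comparison. Neutrophil markers averaged 5.26 and 5.37 in NOD.scid and 4.50 to 4.76 elsewhere, and 6 of 12 were higher in NOD.scid than in NOD, beside the low Lifr there, and their part was not tested. With the transgene in NOD, where Stat3 rose, 7 of 11 fibroblast and stellate markers and 5 of 11 islet markers fell. In NOD.scid, where 7 member probe sets rose with the transgene, 5 of 11 fibroblast and stellate, 6 of 11 islet and 5 of 12 neutrophil markers fell. The part of these cells in the members' values was not tested. Of 11 hepatocyte and 12 T cell markers 0 passed limma's adjusted threshold in any comparison, with at most 3 and 2 under an unadjusted p of 0.05. Hepatocyte markers averaged 4.35 to 4.57 on all arrays.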

How the data were processed

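Whole-pancreas RNA of 4 groups of mice was measured on 8 Affymetrix arrays. The authors deposited 1 table of 12488 probe sets per array on a log2 scale, as inferred from its values (highest 13.78). How the authors normalized, background-corrected and summarised the probes is not stated in the labels or the table. Values were used as deposited, and 66 control probe sets were left out. Of 12422 tested, 10833 carried 1 symbol, 396 several and 1193 none. A limma model of the 4 group means (version 3.58.1, R 4.3.3) used all 8 arrays (variance trend, 4 residual and 8.07 prior degrees of freedom), with two-sided moderated tests, Benjamini-Hochberg adjustment over all 12422 and a threshold of 0.05. Intervals are 95% confidence intervals of the log2 difference, unadjusted.

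All member probe sets are given. Genes of other lists were represented by their single-symbol probe set of highest mean (8251 genes), named by smallest adjusted p (up to 4 per list) or from a fixed list. Members and lists were chosen with earlier results of these data known. Patterns of likeness took the 3 genes of highest r among those with at least a comparable spread. Promoters came from RefSeq (GRCm38.p6), where 7 of the 8 genes had an entry. The test was checked on simulated data. Tables were handled with pandas 2.3.3.

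Title numbers gave no single pairing of the arrays, since deviations of same-numbered arrays correlated between -0.32 and 0.29. The value was 0.29 for NOD with NOD.scid, where replicate 1 has the high actin control in both. It was -0.32 and -0.19 for BDC2.5/NOD.scid, where replicate 2 has it, with NOD and NOD.scid. These signs go with the actin split, and the cause was not tested. The 20 alternatives covered scaling, dim probe sets left out, how the variance prior was set, which arrays entered, the title number, array weights, the threshold, the actin control and each array left out. The number of arrays limits precision.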

Additional observations from a re-analysis of the deposited data

Results flagged for a closer look

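By the interaction term in limma (Benjamini-Hochberg adjusted p under 0.05), the effect of the transgene in NOD.scid differed from that in NOD for 586 probe sets of all those tested. Those given here are the members and the genes that the rule on smallest adjusted p names from the signalling, target, acute-phase and Reg lists. Among the pathway's own genes, the difference between effects was positive, at 1.29, 1.19 and 1.0 for the Lifr probe sets 104658_at, 104659_g_at and 103697_at, 0.91 for Cebpb and 0.89 for Cebpd. For the first 3 it came mainly with a low level in NOD.scid and for the last 2 with a high level in BDC2.5/NOD.scid. Among kinases, adaptors and targets it was -0.78 for Jak3, 0.63 for Gab1, 0.58 for Zfp36, 0.59 for Pim1, -0.85 for Muc1 and -0.52 for Atf4. Among acute-phase and Reg genes it was 2.71 for Lrg1, 2.68 for Saa3, 2.12 for Mt1, -1.74 for Itih4, -1.31 for Reg3b, -2.20 for Reg3a and -1.65 for Reg2. Groups of 2 arrays allow no test for a single deviating array.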

How the results depend on the processing

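Of the 21 calls of a member probe set, 11 held under all 20 alternatives: Socs3 162206_f_at, Cebpb and 3 Lifr probe sets with the transgene in NOD.scid, Stat3 99100_at with the transgene in NOD, Lifr 104658_at and 104659_g_at in NOD.scid against NOD and for the interaction, and Cebpb among transgenic mice. The other 10 were lost under at least 1, 15 values without a call gained 1, and no value changed sign with a call. Over all probe sets, calls with the transgene in NOD.scid numbered 795, and 455 with only the arrays compared, 432 at a threshold of 0.01, 1315 with the actin term, 1418 without the 3 arrays of high actin control and 445 to 746 with an array left out; members stayed at 5 to 8 with an array left out. With the transgene in NOD the same settings gave 990, 1521, 419, 1507, 2179 and 279 to 1139, array weights 1568 and BDC2.5/NOD as 1 sample 278. Members there were 2, and 4 with only the arrays compared, with array weights or with the actin term, 6 without the high actin arrays, 1 with BDC2.5/NOD as 1 sample and 1 to 3 with an array left out. For NOD.scid against NOD members were 3 in the main fit, 2 at 0.01, 4 with the actin term and 2 to 3 with an array left out. The calls over all probe sets were 292, 143 with only the arrays compared, 109 at 0.01 and 739 with the actin term. They were 1489 without the high actin arrays, 159 with BDC2.5/NOD as 1 sample and 71 to 352 with an array left out. Among transgenic mice they were 1037, 484 at 0.01, 2138 without the high actin arrays, 311 with BDC2.5/NOD as 1 sample and 329 to 1149 with an array left out. Members there were 4, and 2 with no variance trend, 1 with the replicate block, 1 at 0.01, 1 with BDC2.5/NOD as 1 sample and 1 to 4 with an array left out. For the interaction they were 586, 229 at 0.01, 1042 with the actin term, 1621 without the high actin arrays, 197 with BDC2.5/NOD as 1 sample and 195 to 491 with an array left out, and members were 5, 3 at 0.01, 3 with BDC2.5/NOD as 1 sample and 2 to 6 with an array left out. The replicate block, which follows numbers that do not pair the arrays, gave 647 calls with the transgene in NOD.scid and 411 for the interaction. The causes were not tested. The fit of only the arrays compared was not run for the interaction, which uses all groups. Dim probe sets (Osmr, Il6st 98349_at, Lifr 104657_at and 97006_s_at) limit what can be seen.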
